A study of Mus musculus with 6 samples.

Results

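The 10 genes described here encode members of the Par, Crumbs and Scribble polarity complexes. They are Pard3, Pard6g, Prkci and Prkcz of the Par complex, Crb1 and Mpdz of the Crumbs complex, and Scrib, Llgl1, Dlg1 and Dlg4 of the Scribble complex. The members were chosen by name, and all 10 were among the 20822 genes of the count table. The question was which retinal cell types carry each complex, with endothelial cells (ECs) set against Neuroglia, Rods and Neurons, and whether the levels differed with the eNOS genotype.

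Cells came from retinas of postnatal day 14 mice with oxygen-induced retinopathy (OIR), a model in which pups kept in high oxygen lose retinal capillaries and regrow vessels abnormally after their return to room air. The eNOS+/+ mice were C57BL/6, given as C57BL/6J in the study's methods, and the eNOS-/- mice, backcrossed to C57BL/6J, were homozygous for a knockout allele of Nos3, the gene of endothelial nitric oxide synthase; OIR and the age were common to both groups. Each genotype had 3 replicates of 3 to 5 pooled retinas, from which a cell suspension enriched for CD31, an endothelial surface protein, was run through Drop-seq. Each captured mRNA molecule was counted by its unique molecular identifier (UMI), read at the 3' end of the transcript. The spread between replicates is thus one between pools, and single animals were not resolved.

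Epithelial cells keep an apical side that differs in its proteins from the basolateral side, and the Par, Crumbs and Scribble complexes set this axis by restraining each other. The Par complex (Par3, Par6 and an atypical protein kinase C) works at the apical side and at cell junctions, the Crumbs complex at the apical membrane, and the Scribble complex (Scribble, Lgl and Dlg proteins) at the basolateral side. In endothelium, Par3 and its partners take part in junction and lumen formation and in the orientation of cells along flow. In the retina, CRB1 lies near the outer limiting membrane, where photoreceptors adhere to Müller glia, and PSD-95, the product of Dlg4, is a synaptic scaffold found in photoreceptor terminals.

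The table held 8944 cells in 10 annotated labels, 3031 of them eNOS+/+ and 5913 eNOS-/-. The endothelial labels were Tip ECs, Structural ECs and Proliferative ECs, and their UMIs together are called all ECs. Libraries held 617246 to 3350799 UMIs, and the median EC held 418 to 1097.5 UMIs depending on the library; 3 pairs of libraries shared 1 cell barcode each, all across genotypes. By label, 10 of 10 EC markers, 10 of 10 Rods markers, 10 of 10 Neurons markers and 8 of 10 Neuroglia markers were highest in their own label, where none was at 0. The labels come from clustering of the same UMIs, so these counts describe the labels and do not test them. The summed Neuroglia markers also reached 71.8% of their own level in Immune cells and 48.7% in the label Optc+. The summed Rods markers reached 319 UMIs per 1000000 UMIs (CPM) in all ECs, 0.477% of their level in Rods, with eNOS-/- replicate 2 highest at 712 CPM. The summed Neuroglia markers in all ECs stood at 8.77% of their level in Neuroglia, and the summed EC markers at 22.5%, 11.8% and 16.1% of their EC level in Neuroglia, Neurons and Rods. In the Rods of eNOS+/+ replicate 3 the EC markers summed to 4048 CPM, beside 9005 CPM in its own ECs. The other Rods sums of at least 10 cells held 701 to 1627 CPM of EC markers. The Rods of eNOS+/+ replicate 3 also had the lowest sum of Rods markers, 43242 CPM. Mural cell markers summed to 2236 CPM in the ECs of eNOS-/- replicate 3 and to between 9.70 and 93.6 CPM in the ECs of the other 5 libraries. The part of these signals in the levels of the polarity genes was not tested, except where a value is given beside a result. Nos3 stood at 19.4, 36.6 and 23.6 CPM in the ECs of the eNOS+/+ replicates and at 21.2, 16.1 and 32.8 CPM in those of the eNOS-/- replicates, so it did not separate the genotypes. Its UMIs come from the 3' end, which need not lie in the deleted part, and they do not check the genotype labels.

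Of the members, Crb1, Dlg4 and Prkcz were lower in all ECs than in Rods, as described below, and sequence ahead of their transcription starts is shown for that reason. The 250 bases before each start were taken from RefSeq on GRCm38.p6. They were used for 7 of the 10 members, with 15 starts in all. Scrib and Mpdz had no matched window, and Pard6g was not searched because windows on its chromosome, 18, were left out. Both strands were searched for TAATCC, the core recognised by the photoreceptor factor CRX, and for TGCTGA, the core recognised by the rod factor NRL, which do not overlap each other in these windows. Crb1 lies on the minus strand at chr1:139197056-139377100, and the window shown ahead of its annotated exons is chr1:139377101-139377326. Prkcz lies on the minus strand at chr4:155260129-155361361, with start 1 preceded by chr4:155361429-155361678, outside the gene, and start 2 by chr4:155345790-155346039, within the gene and between exons. Dlg4 lies on the plus strand at chr11:70016942-70047522, and since the whole window of its start 1 is annotated as exon, only the 30 bases at chr11:70017172-70017201 are shown. Letters in capitals are the matches.
Crb1, start 1: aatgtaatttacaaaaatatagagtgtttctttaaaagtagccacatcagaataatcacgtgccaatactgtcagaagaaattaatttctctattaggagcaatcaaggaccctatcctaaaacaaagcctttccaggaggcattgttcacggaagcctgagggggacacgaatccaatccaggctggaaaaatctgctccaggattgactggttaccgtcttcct
Prkcz, start 1: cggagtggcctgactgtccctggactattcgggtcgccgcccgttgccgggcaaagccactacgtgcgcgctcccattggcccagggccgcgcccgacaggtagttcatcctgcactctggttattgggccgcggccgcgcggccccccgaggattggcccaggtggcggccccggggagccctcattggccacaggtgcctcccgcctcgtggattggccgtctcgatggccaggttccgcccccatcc
Prkcz, start 2: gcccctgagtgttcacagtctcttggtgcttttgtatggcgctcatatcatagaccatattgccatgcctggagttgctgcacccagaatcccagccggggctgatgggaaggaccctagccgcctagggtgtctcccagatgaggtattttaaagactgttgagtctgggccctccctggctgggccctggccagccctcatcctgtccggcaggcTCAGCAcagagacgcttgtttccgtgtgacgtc
Dlg4, start 1, 30 bases: ttcaatcttggcGGATTAgggagattaaat
Among the 15 windows, TAATCC was found before start 1 of Dlg4, where it reads GGATTA on the strand shown, and TGCTGA before start 2 of Prkcz, where it reads TCAGCA. Neither was found in the window of Crb1 or in that of Prkcz start 1. Across 32851 mouse promoter windows of the same length, 6.25% held TAATCC and 16.1% held TGCTGA. These are matches of letters, not evidence of binding.

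Few molecules of these genes were captured, from 55 UMIs of Prkcz to 655 UMIs of Dlg4 in the whole table. Levels are CPM of the UMIs summed over the cells of a label in a library, for sums of at least 10 cells, which left out the Rods of eNOS+/+ replicate 2 (7 cells) and the Neuroglia of eNOS-/- replicate 3 (0 cells). Among the other labels it left out Mural cells of eNOS+/+ replicate 1 (3 cells), Immune cells of eNOS+/+ replicate 2 (1 cell), Optc+ of eNOS-/- replicate 3 (5 cells) and Cones of every library but eNOS-/- replicate 2. CPM are not adjusted for transcript length, so levels are compared between cell types and not between genes. Fewer cells with a transcript and fewer molecules per cell cannot be told apart in such sums. Replicates are listed in the order eNOS+/+ 1, 2 and 3 and then eNOS-/- 1, 2 and 3, without the sums left out.

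Differences between cell types were tested with edgeR's quasi-likelihood test on the 22 sums of all ECs, Neuroglia, Neurons and Rods, with the library as a block and Benjamini-Hochberg adjustment over all genes tested. The labels were made by clustering the same UMIs, so these p-values are not independent of them. Such differences were common. With edgeR's filter on low counts, 38.3% of 2676 genes passed an adjusted p of 0.05 against Neuroglia, 57.6% against Neurons and 61.3% against Rods, and only Crb1 and Dlg4 of the members entered the test. That filter sets its CPM limit from the median sum, and no member exceeded 73.4 CPM in all ECs of any library. Crb1 and Dlg4 entered through their higher levels in other cell types, so under this filter a lower level in ECs was favoured in advance. A limit of 20 UMIs over all sums, chosen after the data were seen, let in all 10 members among 13728 genes, of which 16.1%, 36.6% and 38.1% were called in the same order. Of the 10 members, 1 was called against Neuroglia, 3 against Neurons and 5 against Rods. Crb1 and Prkcz, with 10 and 16 UMIs in all ECs, reached this limit only through the other cell types. For them a lower level in ECs was favoured in advance here too. Pard6g and Scrib reached it only through ECs, which favoured a higher level there. The median log2 fold change of the members was -0.57, 0.17 and -0.39, beside 0.46, -0.05 and -0.09 for all genes. Unless stated otherwise, fold changes are log2 of all ECs over the other cell type under the limit of 20 UMIs for 8 members and under edgeR's filter for Crb1 and Dlg4. With the limit of 20 UMIs, Crb1 was at -6.92 against Neuroglia and -6.48 against Rods. Dlg4 was then at -1.87 against Neurons and -3.72 against Rods.

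**Figure D1:**
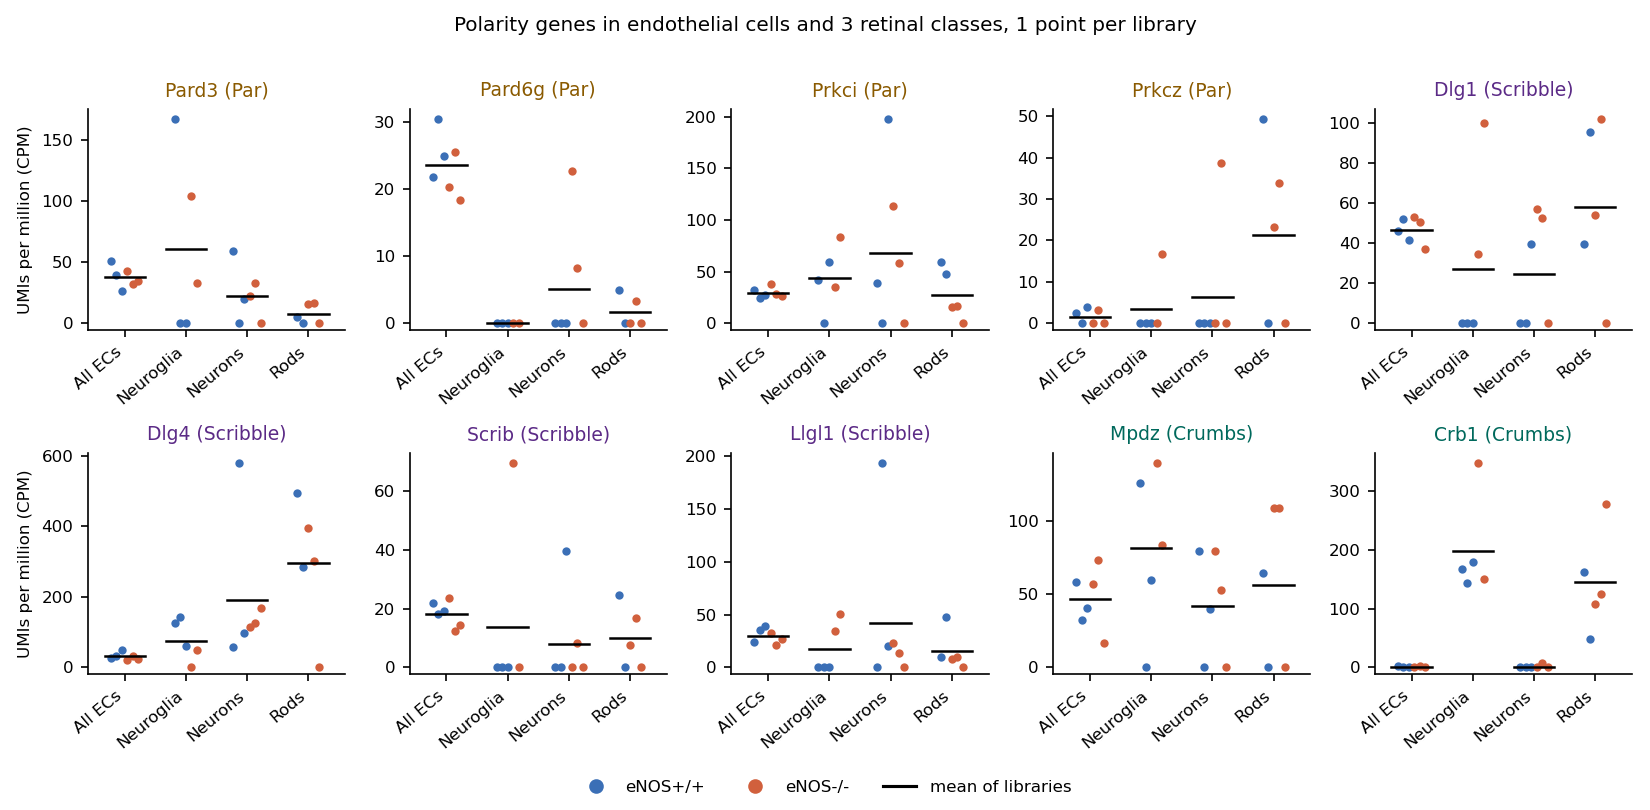
Level of each polarity gene in UMIs per 1000000 (CPM, vertical axis, scaled per gene) in all ECs, Neuroglia, Neurons and Rods, with 1 point per library (blue, eNOS+/+; orange, eNOS-/-) and a black line at the mean. Crb1 reaches at most 2.47 CPM in all ECs and at least 144 CPM in Neuroglia, while Pard6g is at 0 in Neuroglia.

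Among the Crumbs genes, Crb1 showed the widest difference between ECs and other cells. Crb1 encodes the transmembrane Crumbs protein of photoreceptors and Müller glia; UMIs of the gene do not separate its isoforms. In all ECs it had 2, 0, 0, 2, 6 and 0 UMIs, which is 2.43, 0, 0, 0.864, 2.47 and 0 CPM. In Neuroglia it stood at 167, 144, 179, 348 and 150 CPM, from 4, 1, 3, 10 and 9 UMIs. Every Neuroglia library lay above every EC library, and eNOS-/- replicate 1 was the highest. In Rods the levels were 163, 47.6, 109, 126 and 278 CPM from 33, 1, 14, 37 and 2 UMIs, again without overlap with ECs, and their mean of 145 ± 85.6 (SD, n = 5) was within the spread of the 198 ± 85.1 (SD, n = 5) of Neuroglia. Neurons had Crb1 in eNOS-/- replicate 2 only, with 3 UMIs or 8.29 CPM. The log2 fold change of all ECs was -6.96 against Neuroglia (standard error 0.66, edgeR adjusted p = 2.62e-13) and -6.50 against Rods (standard error 0.58, edgeR adjusted p = 2.00e-14), with ECs lower in 5 of 5 libraries both times. Against Neurons it was -1.70, with a 95% interval from -3.89 to 0.50 (edgeR adjusted p = 0.184), and DESeq2 gave -2.54 (adjusted p = 0.00763). Crb1 passed the count filters through its levels outside ECs, so in these tests a lower level in ECs was favoured in advance.

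Over all libraries, ECs held 10 Crb1 UMIs, or 1.21 CPM with an exact 95% Poisson interval for counting error of 0.582 to 2.23 CPM. That is 0.916% of the level in Rods, beside 0.246% to 0.884% for the 10 Rods markers one by one, all of them below Crb1. Of the 10 UMIs, 6 were in eNOS-/- replicate 2, the library with the most Rods markers in its ECs and also the most EC UMIs, and its 2.47 CPM was close to the 2.43 CPM of eNOS+/+ replicate 1. The source of these UMIs was not tested. The share of cells with a Crb1 UMI was 13.0% in Neuroglia (95% Wilson interval 8.92% to 18.7%), 4.64% in Rods (3.69% to 5.82%) and 0.152% in all ECs (0.0799% to 0.288%), at a median of 541, 361 and 682 UMIs per cell. With each cell thinned to 500 UMIs, which left out 86, 1087 and 2380 shallower cells, the shares were 13.3%, 5.94% and 0.0282%. No Crb1 UMI was found in 216 Immune cells or 214 Mural cells. Cones, with 1 library of at least 10 cells, stood at 190 CPM, and the label Optc+ at 52.2 ± 49.5 CPM (SD, n = 5). These intervals cover counting error only.

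Mpdz encodes MUPP1, a scaffold with many PDZ domains that binds partners of Crumbs and tight junctions. It was spread over most cell types. In all ECs it ranged from 16.4 CPM in eNOS-/- replicate 3, the library with the most Mural cell markers in its ECs, to 73.4 CPM in eNOS-/- replicate 2, with a median of 48.9 CPM. Neuroglia held 125, 0, 59.8, 139 and 83.4 CPM, Neurons 0 to 79.5 CPM with a median of 46.0, and Rods 64.1, 0, 109, 109 and 0 CPM. The ranges of these cell types overlapped with that of ECs. Its log2 fold change was -0.52 against Neuroglia (95% interval -1.61 to 0.56), 0.07 against Neurons (-0.80 to 0.94) and -0.68 against Rods (-1.46 to 0.09), and none passed the test. Immune cells had 1 Mpdz UMI in all, and Mpdz was the single member with a step between neighbouring labels wider than their summed SDs, between Tip ECs at 38.9 CPM and Immune cells at 2.76 CPM.

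In the Par complex, the scaffolds Pard3 and Pard6g were higher in ECs than in Rods, and the kinase gene Prkcz was lower. Pard3 encodes the Par3 scaffold that recruits the complex to junctions. All ECs held 50.9, 39.6, 26.3, 42.8, 31.7 and 34.8 CPM, a mean of 37.7 ± 8.70 (SD, n = 6). Rods held 4.93, 0, 15.5, 17.0 and 0 CPM from 1, 0, 2, 5 and 0 UMIs, and the 3 libraries with a UMI lay below the lowest EC library. In the 2 at 0, eNOS+/+ replicate 3 and eNOS-/- replicate 3, 1 UMI would be 47.6 and 139 CPM, so these could not show a level as low as that of ECs. This gave a log2 fold change of 1.51 (standard error 0.58, edgeR adjusted p = 0.0278). This call was lost without eNOS+/+ replicate 1 (adjusted p = 0.0897) and without eNOS-/- replicate 1 (adjusted p = 0.0666). Pooled Pard3 in ECs was at 300% of its level in Rods. Against Neuroglia (167, 0, 0, 104 and 33.3 CPM) and Neurons (0 to 59.2 CPM) the libraries overlapped, with log2 fold changes of -0.61 (95% interval -1.81 to 0.59) and 0.27 (-0.71 to 1.24).

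Pard6g encodes a Par6 adaptor that links Par3 to atypical protein kinase C. In all ECs it stood at 21.8, 30.5, 25.0, 20.3, 25.6 and 18.4 CPM, a mean of 23.6 ± 4.33 (SD, n = 6). Rods held 4.93, 0, 0, 3.40 and 0 CPM, from 2 UMIs in all. The same 2 Rods libraries as for Pard3 could not show a level as low as that of ECs, and the other 3 lay below every EC library. The log2 fold change against Rods was 2.59 (standard error 0.84, edgeR adjusted p = 0.00775); without eNOS-/- replicate 2 the adjusted p was 0.0609. Neuroglia had no Pard6g UMI among 136364, which allows up to 22.0 CPM (3 UMIs; the two-sided exact 95% Poisson limit is 27.1 CPM), about the pooled 23.6 CPM of ECs, so the 0 alone does not place Neuroglia below ECs. In 4 of the 5 Neuroglia libraries 1 UMI would be 34.8 to 144 CPM, above every EC level, so the direction by library says little. The edgeR adjusted p was 0.0578, while DESeq2 gave an adjusted p of 0.0338 and edgeR with no filter 0.00464, so the call depends on the setting. Neurons had 5 UMIs, in eNOS-/- replicates 1 and 2, and the log2 fold change of 1.39 (95% interval 0.03 to 2.74) had an edgeR adjusted p of 0.105 (0.011 with no filter).

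Prkci and Prkcz encode the atypical protein kinases C of the Par complex, and their levels were distributed differently. Prkci was present in every EC library, at 24.4 to 38.4 CPM and a mean of 29.6 ± 5.11 (SD, n = 6). Neurons held 39.5, 0, 198, 114, 58.0 and 0 CPM, with eNOS+/+ replicate 3 highest at 10 UMIs. Against Neurons the log2 fold change was -1.43 (standard error 0.41, edgeR adjusted p = 0.00212). It fell short without eNOS+/+ replicate 3 (-0.90, adjusted p = 0.121), with DESeq2 (-0.64, adjusted p = 0.30), with no filter (-0.77, adjusted p = 0.181) and in cells of at least 500 UMIs (-0.79, adjusted p = 0.207). Rods held 59.2, 47.6, 15.5, 17.0 and 0 CPM and Neuroglia 41.8, 0, 59.8, 34.8 and 83.4 CPM, around the EC values, and the log2 fold changes were -0.21 (95% interval -1.15 to 0.73) and -0.75 (-2.02 to 0.53).

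Prkcz had 16 UMIs in all ECs, at 2.43, 0, 3.94, 0, 3.30 and 0 CPM. Rods held 23 UMIs in a much smaller total, at 49.3, 0, 23.3, 34.0 and 0 CPM. The 3 Rods libraries with a UMI lay above every EC library, and the other two were at 0. The log2 fold change against Rods was -3.97 (standard error 0.66, edgeR adjusted p = 2.66e-08) and passed in 9 of 9 settings that tested it. Prkcz had too few counts to be tested under edgeR's filter, including the setting with cells of at least 500 UMIs. Pooled Prkcz in ECs was 5.55% of the level in Rods, above the 0.246% to 0.884% of the Rods markers. In Neurons, all 14 UMIs came from eNOS-/- replicate 2 (38.7 CPM), and in Neuroglia the single UMI came from the same library. Against Neurons the value was -2.70 (standard error 0.73, edgeR adjusted p = 0.000998), but it rests on that library, without which the adjusted p was 0.631, and with DESeq2 it did not pass (-2.14, adjusted p = 0.299).

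**Figure D2:**
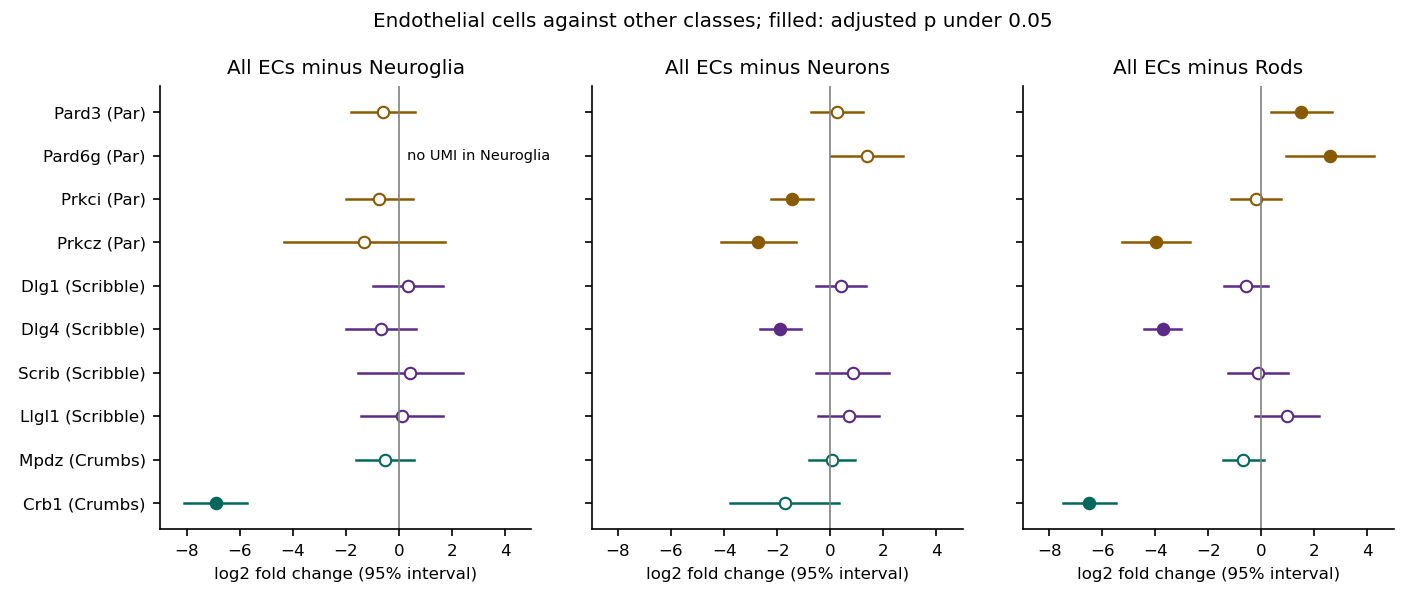
Log2 fold change of all ECs over Neuroglia, Neurons and Rods for each polarity gene (horizontal axis), with 95% intervals, from edgeR with the limit of 20 UMIs; filled points passed an adjusted p of 0.05. Crb1 lies far to the left against Neuroglia and Rods, Dlg4 and Prkcz to the left against Neurons and Rods, and Pard3 and Pard6g to the right against Rods.

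Of the Scribble complex genes, Dlg4 was lower in ECs than in Neurons and Rods, and Scrib, Llgl1 and Dlg1 passed no edgeR test under the limit of 20 UMIs. Dlg4 encodes PSD-95, a membrane-associated guanylate kinase that anchors receptors and channels at synapses. All ECs held 27.9, 33.5, 50.6, 21.6, 33.0 and 24.6 CPM. Neurons held 59.2, 579, 98.9, 114, 127 and 167 CPM, with the highest value from 3 UMIs, and each lay above every EC library. Rods held 493, 286, 395, 302 and 0 CPM, from 100, 6, 51, 89 and 0 UMIs; in the last, eNOS-/- replicate 3, 1 UMI would be 139 CPM. The log2 fold change was -1.88 against Neurons (standard error 0.39, edgeR adjusted p = 3.52e-05, lower in 6 of 6 libraries) and -3.73 against Rods (standard error 0.34, edgeR adjusted p = 6.01e-14, lower in 4 of 5 libraries). Dlg4 entered edgeR's filter through the other cell types, so in that test a lower level in ECs was favoured in advance. The limit of 20 UMIs is met by its 264 UMIs in ECs alone. Under it the values were -1.87 against Neurons (edgeR adjusted p = 9.87e-06) and -3.72 against Rods (edgeR adjusted p = 1.19e-24). With DESeq2 under the limit of 20 UMIs the value against Neurons was -1.03 (adjusted p = 0.0792). Neuroglia held 125, 144, 59.8, 0 and 50.02 CPM from 8 UMIs in all, and the log2 fold change of -0.69 (95% interval -2.08 to 0.70) had an edgeR adjusted p of 0.470.

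The pooled 32.1 CPM of Dlg4 in ECs was 8.49% of that in Rods, against at most 0.884% for a Rods marker; the part of transcripts from other cells in this level was not tested. Cells with a Dlg4 UMI made up 12.7% of Rods, 8.99% of Neurons, 4.35% of Neuroglia and 3.56% of all ECs, and 14.5%, 5.61%, 5.10% and 1.24% once thinned to 500 UMIs. Mural cells held 106 ± 72.1 CPM (SD, n = 5), and Cones 253 CPM in the 1 library.

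**Figure D3:**
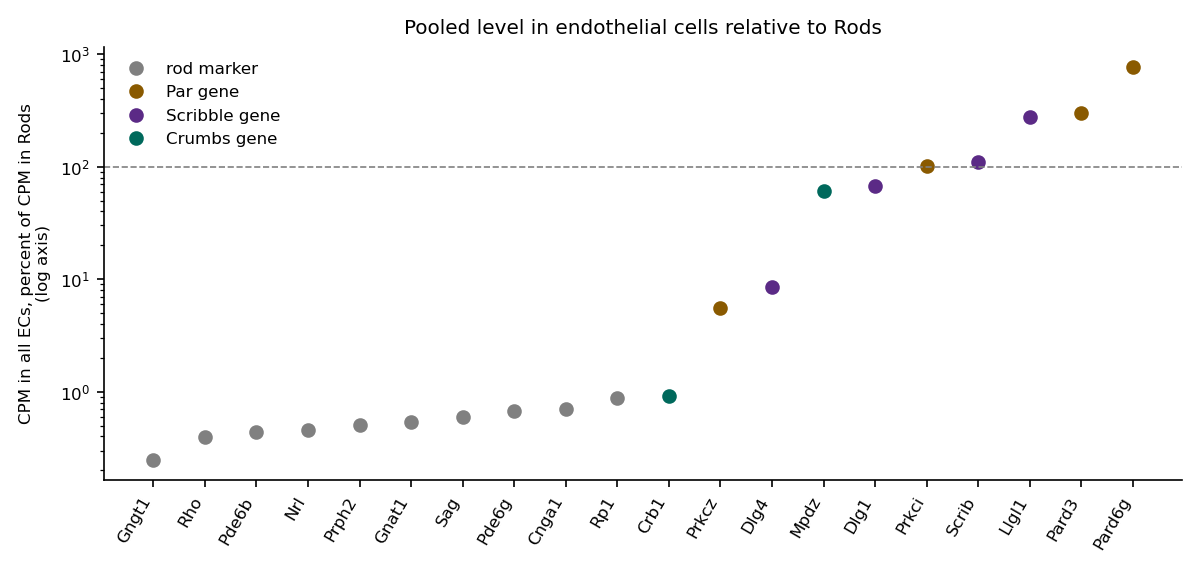
Pooled level in all ECs as a percent of the pooled level in Rods (log axis) for the 10 Rods markers and the 10 polarity genes, with a dashed line at 100%. The Rods markers lie between 0.246% and 0.884%, Crb1 just above them at 0.916%, Prkcz at 5.55% and Dlg4 at 8.49%, while Pard3, Llgl1 and Pard6g lie above 100%.

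Dlg1 encodes SAP97, the Dlg protein of epithelial lateral membranes. In all ECs it ranged from 36.9 to 53.1 CPM with a mean of 46.6 ± 6.41 (SD, n = 6). Rods held 39.5, 95.2, 54.3, 102 and 0 CPM, Neurons 0 to 56.8 CPM with a median of 19.8, and Neuroglia had UMIs in eNOS-/- replicates 1 and 2 only (34.8 and 100.0 CPM). The cell types overlapped, with log2 fold changes of -0.58 against Rods (95% interval -1.40 to 0.25), 0.41 against Neurons (-0.53 to 1.35; with DESeq2 1.14, adjusted p = 0.0396) and 0.34 against Neuroglia (-0.96 to 1.64). Scrib encodes the large basolateral scaffold that gives the complex its name. All ECs held 12.4 to 23.8 CPM and a mean of 18.3 ± 4.33 (SD, n = 6). The other cell types had few molecules: Rods 24.7, 0, 7.75, 17.0 and 0 CPM, Neurons 39.6 CPM in eNOS+/+ replicate 3 and 8.29 CPM in eNOS-/- replicate 2, and Neuroglia 69.6 CPM in eNOS-/- replicate 1 from 2 UMIs. Scrib was higher in ECs than in Neurons in 5 of 6 libraries, with a log2 fold change of 0.85 (95% interval -0.52 to 2.21), and the value against Rods was -0.12 (-1.24 to 0.99). In the Neurons sums at 0, 1 UMI would be 19.7, 193, 11.4 and 167 CPM, so the direction by library says little.

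Llgl1, whose product Lgl1 is held off the apical side by atypical protein kinase C, stood at 21.0 to 38.7 CPM in all ECs with a mean of 29.7 ± 6.81 (SD, n = 6). Rods held 9.87, 47.6, 7.75, 10.2 and 0 CPM, the second of these from 1 UMI. ECs were higher in 4 of 5 libraries and the pooled level in ECs was 274% of that in Rods, but the log2 fold change of 0.96 (95% interval -0.24 to 2.17) had an edgeR adjusted p of 0.21; with DESeq2 it was 1.64 (adjusted p = 0.03) and with no filter 1.62 (adjusted p = 0.0276). Against Neurons, where eNOS+/+ replicate 2 reached 193 CPM from 1 UMI, it was 0.70 (-0.45 to 1.84), and against Neuroglia 0.12 (-1.44 to 1.67). Llgl1 (chr11:60699723-60714186, plus strand) shares exon bases with Flii on the opposite strand, and use of the strand in counting was not given in the sources used here, so its counts are uncertain.

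Across the 10 labels, the order of the mean levels differed between members of the same complex. Pard3, Prkci and Mpdz were highest in the small label Optc+, named for the opticin gene, at 170 ± 103, 94.9 ± 31.8 and 103 ± 58.1 CPM (SD, n = 5), and ECs were below Optc+ in 5 of 5 libraries for each. In UMIs pooled over libraries, Mpdz was higher in Neuroglia (95.3 CPM), Rods (89.9) and Mural cells (82.8) than in Optc+ (80.1), and Prkci higher in Cones (110.9) than in Optc+ (101.2). Pard6g was highest in Mural cells (33.3 ± 42.2 CPM, SD, n = 5), a mean set by eNOS+/+ replicate 3 (104 CPM from 3 UMIs) and not seen in pooled UMIs, where Mural cells had 25.5 CPM and Optc+ 33.7. Scrib was highest in Proliferative ECs (27.2 ± 14.5 CPM, SD, n = 6), and Prkcz, Dlg1 and Dlg4 in Rods. Crb1 was highest in Neuroglia, and Llgl1 in Neurons, where 1 UMI of 1 library set the mean. Other than the step of Mpdz to Immune cells, no gap between neighbouring labels exceeded the sum of their SDs. Immune cells had no UMI of Pard3, Pard6g, Prkcz or Crb1 among 167465, which allows up to 17.9 CPM (3 UMIs; the two-sided exact 95% Poisson limit is 22.03 CPM), below the pooled EC level of Pard3 and Pard6g and above that of Prkcz and Crb1.

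**Figure D4:**
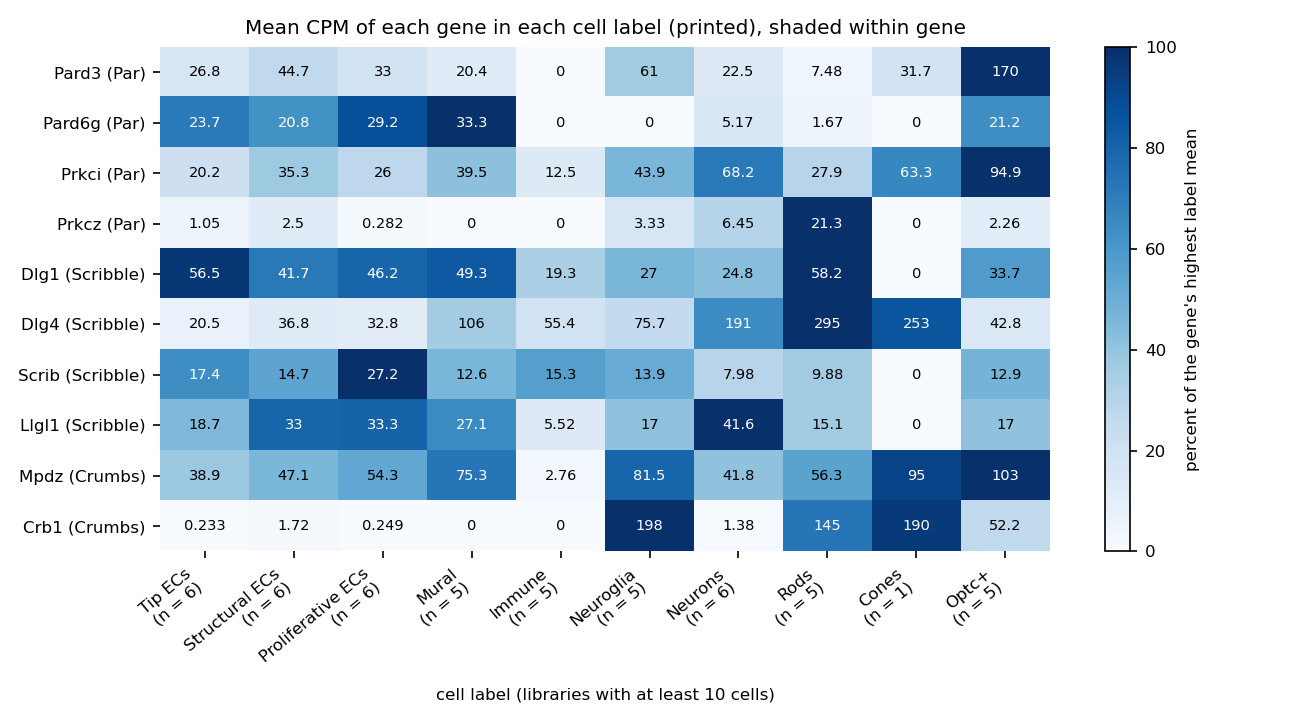
Mean level of each polarity gene (rows, CPM) in the 10 labels (columns), shaded as a percent of the gene's highest label; Cones rest on 1 library. Pard3, Prkci and Mpdz are darkest in Optc+, Dlg4 and Prkcz in Rods, and Crb1 in Neuroglia.

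Within the endothelium, the libraries of the 3 EC labels overlapped for each of the 10 members. Pard3 averaged 26.8 ± 17.3, 44.7 ± 14.9 and 33.0 ± 10.4 CPM in Tip, Structural and Proliferative ECs (SD, n = 6). Dlg1 averaged 56.5 ± 17.8, 41.7 ± 7.87 and 46.2 ± 26.4 CPM in the same order, the reverse for Tip against Structural ECs. Prkci averaged 20.2, 35.3 and 26.0 CPM and Scrib 17.4, 14.7 and 27.2 CPM. The means of Crb1 and Prkcz over libraries were 0.233 to 2.50 CPM in these labels, with single libraries of Prkcz up to 6.31 CPM.

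A list of 35 other genes of the complexes and their regulators, all in the table, had 30 members with at least 20 UMIs over the sums. Against Neuroglia 3 were higher in all ECs and 3 lower, against Neurons 6 and 12, and against Rods 7 and 11, with median log2 fold changes of 0.04, -0.45 and -0.49. In the Crumbs module of 12 tested genes, 0 were higher and 3 lower against Neuroglia, 2 and 7 against Neurons, and 2 and 6 against Rods. In the Par module of 11, 3 were higher and 0 lower against Neuroglia, 2 and 3 against Neurons, and 4 and 1 against Rods. In the Scribble module of 7, 0 passed against Neuroglia, 2 were higher and 2 lower against Neurons, and 1 and 4 against Rods. These counts stand against the shares of all genes called, given above. Some of the genes counted as lower reached the limit of 20 UMIs only through the other cell types, as given below.

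The genes of smallest p in this list were mostly near 0 in ECs and higher in Neurons, Rods or Neuroglia. The scaffold gene Mpp4, a photoreceptor partner of PSD-95, had 1.82 CPM in pooled ECs, 0 in Neuroglia, 10.7 in Neurons and 244 in Rods, a log2 fold change against Rods of -7.19 (edgeR adjusted p = 3.07e-44). Llgl2, the paralog of Llgl1, had 2.67 CPM in ECs and 189 in Rods (log2 fold change -6.12), and Epb41l5, a Crumbs regulator, 3.89 and 143 CPM (-5.38). Lin7a, a small adaptor of Crumbs and synaptic complexes, had 943 CPM in Neurons and 4.98 in ECs (log2 fold change -7.95, edgeR adjusted p = 3.84e-70). Dlg2, a paralog of Dlg4, had 151 CPM in Neurons, 70.1 in Rods and 2.31 in ECs, with log2 fold changes of -5.84 and -4.96. Dlg3 (-4.77), Mark1 (-5.01) and Mpp2 (-4.29) were also lower in ECs than in Neurons, and Lrrc1 (-3.20) than in Rods. Mpp2 (-4.06, edgeR adjusted p = 1.17e-09), Epb41l5 (-3.58) and Lin7a (-3.40) were lower in ECs than in Neuroglia. Of these genes, Mpp4, Dlg2, Dlg3 and Mark1 had 15, 19, 8 and 6 UMIs in all ECs. They reached the limit of 20 UMIs only through the other cell types, so a lower level in ECs was favoured in advance. Llgl2, Epb41l5, Lin7a, Mpp2 and Lrrc1, with 22 to 51 UMIs in all ECs, met this limit through ECs alone. In the opposite direction, the small GTPases Rac1 and Cdc42, which act upstream of Par6, were higher in ECs than in Neuroglia by 3.28 and 1.22 on the log2 scale (edgeR adjusted p = 0.000761 and 0.00570). Rac1 had 133 CPM in ECs and 14.7 in Neuroglia, and Cdc42 had 754 and 447. In Neuroglia these rest on 2 UMIs of Rac1 and 61 of Cdc42, and there were 7 of Epb41l5, 8 of Lin7a and 16 of Mpp2. Over the Neuroglia libraries Rac1 averaged 18.9 ± 27.4 CPM, Epb41l5 49.3 ± 60.7 and Lin7a 38.9 ± 42.5 (SD, n = 5), so these 3 calls stand on few molecules. Their values with a library left out are not given here.

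No member of the polarity complexes was called between the genotypes. In all ECs, 8 members had enough counts, and 0 passed edgeR's test, beside 0.0211% of 9483 genes. None had an unadjusted p under 0.05 with edgeR or with DESeq2. Dlg4 was nearest, at 27.9, 33.5 and 50.6 CPM in eNOS+/+ and 21.6, 33.0 and 24.6 CPM in eNOS-/-, which overlapped. Its log2 fold change of eNOS-/- over eNOS+/+ was -0.54 (95% interval -1.19 to 0.12, edgeR adjusted p = 0.887). The others ranged from -0.33 for Llgl1 (-0.96 to 0.31) over -0.22 for Pard6g (-0.86 to 0.41), -0.20 for Scrib (-0.97 to 0.56), -0.06 for Pard3 (-0.68 to 0.56), 0.06 for Dlg1 (-0.46 to 0.57) and 0.15 for Prkci (-0.44 to 0.75) to 0.27 for Mpdz (-0.51 to 1.05). The data do not exclude changes within these intervals. Crb1 had 2 UMIs in eNOS+/+ ECs and 8 in eNOS-/- ECs, and Prkcz 8 in each, too few to test. The eNOS-/- ECs held more UMIs in all, so these raw counts are not levels. Prkcz stood at 2.43, 0 and 3.94 CPM in eNOS+/+ and at 0, 3.30 and 0 CPM in eNOS-/-.

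In the single EC labels and outside the endothelium, the share of genes called was 0.0181% for Tip ECs, 0.0264% for those called Structural, 0.0217% for Proliferative ECs, 0.032% in Rods, 0% in Neuroglia and 0% in Neurons. Of the members, 3 passed the filter in Tip, 7 in Structural and 2 in Proliferative ECs and 4 in Rods, where 0 were called and 0 had an unadjusted p under 0.05 with edgeR or DESeq2. In Neuroglia and Neurons 0 members passed it; with the limit of 20 UMIs, 1 and 4 were tested there and 0 called by edgeR or at an unadjusted p under 0.05. Over all genes, 28 in Neuroglia and 41 in Neurons had an unadjusted p under 0.05 with edgeR, and DESeq2 called 0 in both. In Structural ECs, Pard6g stood at 29.9, 28.3 and 25.2 CPM in eNOS+/+ and 14.0, 19.7 and 7.47 CPM in eNOS-/-. The 7.47 CPM rests on 2 UMIs of eNOS-/- replicate 3, the library with the most Mural cell markers in its ECs. The log2 fold change of Pard6g was -0.86 (95% interval -1.78 to 0.05, edgeR adjusted p = 0.895). Dlg4 in the same cells stood at 34.9, 28.3 and 73.1 CPM against 25.3, 36.7 and 22.4 CPM, with a log2 fold change of -0.77 (-1.60 to 0.06). In Rods the log2 fold change was -0.41 (-1.50 to 0.68) for Dlg4 and -0.05 (-1.39 to 1.28) for Crb1, over 2 against 3 libraries. Of these, eNOS+/+ replicate 3 had the most EC markers in its Rods. Rods Prkci stood at 59.2 and 47.6 CPM in eNOS+/+ and at 15.5, 17.0 and 0 CPM in eNOS-/-, where the 47.6 CPM is 1 UMI and the 0 comes from a sum in which 1 UMI would be 139 CPM. Its log2 fold change was -1.71 (-3.63 to 0.21). The genotype difference in Tip ECs minus that in Structural ECs was between -0.71 (Pard3) and 0.92 (Pard6g) on the log2 scale for the 8 members, and Tip minus Proliferative ECs between -0.77 and 1.26; 0 members and 0% of genes passed either edgeR test, with 275 and 274 genes at an unadjusted p under 0.05 and 0 called by DESeq2.

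**Figure D5:**
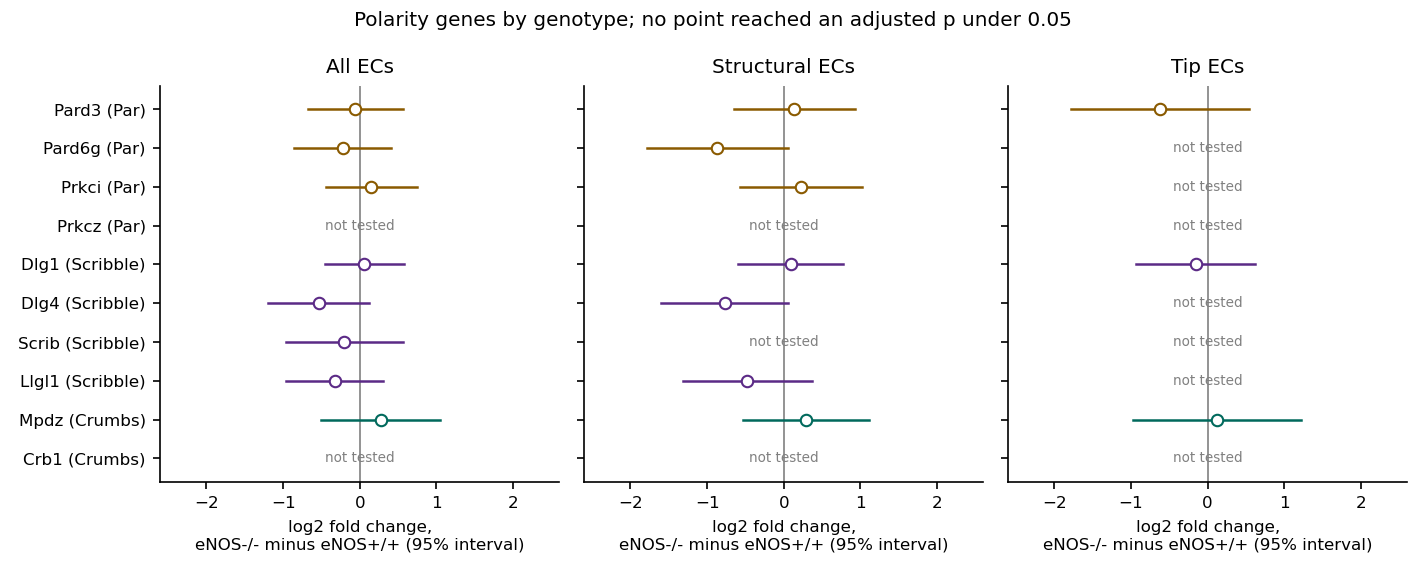
Log2 fold change of eNOS-/- over eNOS+/+ (horizontal axis) with 95% intervals for the polarity genes in all ECs, Structural ECs and Tip ECs, from edgeR over 3 libraries of each genotype; genes below the count filter are marked as not tested. Every interval includes 0, and Pard6g and Dlg4 in Structural ECs come nearest to leaving it out.

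Among the further polarity genes, 18 were tested between genotypes in all ECs and 0 passed. Those of smallest p were Mark4, a kinase of the Par1 family, at -0.89 (edgeR unadjusted p = 0.0121, adjusted p = 0.824), Lin7c at 0.64 (edgeR unadjusted p = 0.0176, adjusted p = 0.824), and, with unadjusted p over 0.05, Rac1 at -0.46, Erbin at 0.28 and Dlg5 at -0.55 on the log2 scale.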

How the data were processed

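Drop-seq libraries of CD31-enriched retinal cells were sequenced by the authors. Per the paper's methods and the labels, reads were converted with bcl2fastq, quantified with kb-python on mouse GRCm38 (mm10), and cells with fewer than 100 genes or over 10% mitochondrial reads were removed before clustering in Seurat version 3. The deposited table holds UMI counts per gene and cell, without normalization, and a table of cell labels from which genotype, replicate, cell type and barcode were used; its other 14 columns were not used. One of these, for the original identity, gives cells of eNOS+/+ replicates 1 and 2 the same name; the replicate column, which follows the sample labels, was used, and these replicates shared no cell barcode. All cells carry the authors' singlet call, and no further doublet or cell filter was applied. The labels give 2121 eNOS+/+ and 3804 eNOS-/- ECs, where the study states 2044 and 3334. Within libraries, 830 groups of barcodes differed in their last base alone (2874 cells), and a setting keeping 1 cell per group was run. No libraries were copies: each pair differed by 3.64 to 10.3 times the sampling noise.

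UMIs were summed per library and label (Python 3.11.15, pandas 2.3.3) for at least 10 cells. CPM are UMIs per 1000000 UMIs of the sum. EC sums held 488367 to 2425603 UMIs, where 3 UMIs in the pooled ECs are 0.364 CPM. Tests used edgeR 4.0.16 in R 4.3.3 (quasi-likelihood, TMM scaling, filterByExpr, Benjamini-Hochberg, limit 0.05), without a block for the genotype, and were tested on simulated data. Replicates are pools of retinas, and nothing says how many mice each held. Alternatives were DESeq2 1.42.0, RLE scaling, no filter, cells of at least 500 UMIs, sums of at least 20 cells, genes without the mitochondrial ones, a replicate block and leaving out each library; the limit of 20 UMIs, alone and with DESeq2 or a library left out, was chosen after the data were seen. All 10 members are named, with up to 5 other polarity genes of smallest p per main comparison and the 3 genes most like each member with at least 200 UMIs. Members and lists were chosen with earlier results of these data known. Intervals are 95% and cover counting error only where they are of shares and pooled levels. Coordinates are from GENCODE on GRCm38.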

Additional observations from a re-analysis of the deposited data

Results flagged for a closer look

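A group of 4 to 10 libraries was marked where its highest or lowest library stood apart by Dixon's test. For normally distributed values chance alone would do so in about 1 in 20 groups. With counts this low that rate does not hold, since a group with UMIs in 1 library and 0 in the others is always marked. Of 93 groups of a gene in a label, 22 (23.7%) were marked, a share that cannot be read against 1 in 20. Most of the marked values rest on 0 to 3 UMIs beside libraries at or near 0.

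For Crb1, the marked library was eNOS-/- replicate 1 in Neuroglia, at 348 CPM from 10 UMIs. Crb1 was also marked in Neurons of eNOS-/- replicate 2 (8.29 CPM, 3 UMIs), in Tip ECs of eNOS-/- replicate 2 (1.40 CPM, 1 UMI) and in Proliferative ECs of eNOS-/- replicate 1 (1.496 CPM, 1 UMI).

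Prkcz was marked in Neurons of eNOS-/- replicate 2, which alone held UMIs there (38.7 CPM, 14 UMIs). The other Prkcz marks were Neuroglia of the same library (16.7 CPM, 1 UMI), Proliferative ECs of the same library (1.69 CPM, 1 UMI), Tip ECs of eNOS+/+ replicate 3 (6.31 CPM, 3 UMIs) and Optc+ of eNOS+/+ replicate 3 (11.3 CPM, 1 UMI). Pard6g was marked in Neurons of eNOS-/- replicate 1 at 22.7 CPM (2 UMIs), and Prkci in Proliferative ECs of eNOS-/- replicate 3 at 0 CPM.

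Dlg4 stood out in Structural ECs of eNOS+/+ replicate 3, at 73.1 CPM from 58 UMIs, the mark with the most molecules behind it. In Neurons of eNOS+/+ replicate 2 Dlg4 reached 579 CPM from 3 UMIs, and Llgl1 in the same sum 193 CPM from 1 UMI. Llgl1 was further marked in Rods of eNOS+/+ replicate 3 (47.6 CPM, 1 UMI), Immune cells of eNOS-/- replicate 1 (27.6 CPM, 2 UMIs) and Tip ECs of eNOS-/- replicate 3 (0 CPM). Dlg1 was low in Tip ECs of eNOS-/- replicate 3, at 21.0 CPM from 3 UMIs. Scrib was marked in Neuroglia of eNOS-/- replicate 1 (69.6 CPM, 2 UMIs), Mural cells of eNOS+/+ replicate 2 (49.6 CPM, 1 UMI) and Neurons of eNOS+/+ replicate 3 (39.6 CPM, 2 UMIs), and Mpdz in Immune cells of eNOS-/- replicate 1 (13.8 CPM, 1 UMI).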

How the results depend on the processing

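Crb1 was called lower in ECs than in Neuroglia and in Rods in 22 of 22 settings each (log2 fold change -7.78 to -6.13 and -6.81 to -5.85), Dlg4 lower than in Rods in 24 of 24 (-3.81 to -2.79) and than in Neurons in 23 of 24, and Prkcz lower than in Rods in 9 of 9, while no genotype value of a member was called in any of 16. The limits are few molecules and few cells: Pard3 passed against Rods in 8 of 10 settings, Pard6g against Rods in 8 of 9, Prkci against Neurons in 7 of 11, and Prkcz against Neurons in 7 of 9. These counts cover only the settings in which a gene passed the count filter. Where a filter was set, Crb1 and Prkcz passed it through cell types other than ECs, which favoured a lower level in ECs. The same held for Dlg4 under edgeR's filter. Pard3, Pard6g and Prkcz were not tested in cells of at least 500 UMIs or with 1 cell per barcode group.

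Brackets give the genes called of all genes tested. Against Neuroglia 2 of 10 members were called with no filter (4116 of 20498) and 2 of 10 with DESeq2 under the limit of 20 UMIs (4148 of 13728). Against Neurons 3 of 10 were called with no filter (5595 of 20498) and 3 of 10 with the limit of 20 UMIs (5018 of 13728). DESeq2 under that limit called 1 of 10 (4598 of 13728). DESeq2 under edgeR's filter called 2 of 2 (1553 of 2676), and the mean of the 3 EC labels 2 of 6 (3657 of 6554). Against Rods 6 of 10 were called with no filter (5331 of 20498) and 5 of 10 with the limit of 20 UMIs (5237 of 13728). Leaving out 1 library gave 0 to 1 member against Neuroglia and 1 to 2 against Rods, of 1 to 3 tested, since Crb1 did not pass edgeR's filter without eNOS-/- replicate 1 or 2. Without the first of these, 660 and 1035 of 1925 genes were called against Neuroglia and Rods. Without the second, 640 and 985 of 1729 were called. The median log2 fold change of all genes moved with the setting, from 0.34, -0.01 and -9.5e-05 against Neuroglia, Neurons and Rods to 1.201, 0.57 and 0.57 with no filter and 0.84, 0.48 and 0.45 with DESeq2 under the limit of 20 UMIs. Genes higher and lower in ECs than in Neuroglia were 655 and 369, 487 and 473 with RLE scaling and 3275 and 841 with no filter; with no filter they were 3713 and 1882 for Neurons (791 and 750 otherwise) and 3644 and 1687 for Rods (815 and 825 otherwise). Under the limit of 20 UMIs, the 1123 and 1082, 2401 and 2617, and 2331 and 2906 genes became 3536 and 612, 3387 and 1211, and 3214 and 1160 with DESeq2.

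Signs turned for values that had not been called. Against Neuroglia, with no filter Dlg4 was 0.21, Prkci 0.13, Mpdz 0.33 and Pard3 0.27, with DESeq2 Dlg4 0.45, Prkci 0.35, Mpdz 0.44 and Pard3 0.40, and in cells of at least 500 UMIs Mpdz 0.088. Against Neurons, Mpdz was -0.0032 in those cells and Crb1 1.68 without eNOS-/- replicate 2. Against Rods, with no filter Prkci was 0.45, Mpdz 0.0023, Scrib 0.52 and Dlg1 0.12, with DESeq2 Prkci 0.56, Scrib 0.56 and Dlg1 0.17, and in cells of at least 500 UMIs Prkci 0.0067. The genotype value of Crb1 in Rods was 0.14 with DESeq2. Leaving out 1 library gave ranges against Neuroglia of -1.89 to 2.49 for Prkcz, -0.21 to 1.32 for Llgl1, -0.21 to 5.69 for Scrib, which had no UMI left there without eNOS-/- replicate 1, and -0.026 to 1.96 for Dlg1. Against Neurons they were -0.13 to 0.34 for Mpdz and -3.13 to 2.47 for Prkcz, the latter called and turned only without eNOS-/- replicate 2, which held all its UMIs in Neurons. Against Rods they were -0.51 to 0.78 for Prkci and -0.46 to 0.36 for Scrib. Between genotypes in all ECs they were -0.031 to 0.27 for Prkci, -0.086 to 0.55 for Mpdz, -0.31 to 0.21 for Pard3, -0.59 to 0.042 for Scrib and -0.017 to 0.15 for Dlg1, and in Rods -0.40 to 1.65 for Crb1 and -0.79 to 0.42 for Dlg4. Except where a count of UMIs is given, the cause was not tested.

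Same-numbered replicates of the genotypes deviated from their group means with correlations of 0.22, -0.10 and 0.19, and not every library correlated best with its own number, so the numbers were not taken as pairs; with the replicate block no member was called, and the genotype value of Crb1 in Rods was 0.033. The number of genes called between genotypes in all ECs ranged from 0 to 84 over the settings, and with DESeq2 it was 3.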

Other observations

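Over the 10 labels, the genes whose mean level followed a member most closely (Pearson correlation of log2(CPM + 1) among 7445 genes with at least 200 UMIs) were Wasl for Pard3 (0.966), Dock6 for Pard6g (0.988), Eef1akmt2 for Prkci (0.958), Chd1 for Dlg1 (0.986), 4632415L05Rik for Dlg4 (0.952), Atl2 for Llgl1 (0.981) and Znhit6 for Mpdz (0.983). The next most similar were Tmem263 and Uri1 for Pard3, Sec24d and Zfp46 for Pard6g, mt-Cytb and Olfm1 for Prkci, Tnfrsf26 and Fam133b for Dlg1, Idh3b and Got1 for Dlg4, Phb2 and Tmem250-ps for Llgl1, and Rchy1 and Rprd2 for Mpdz. The points are 10 labels of the same 6 libraries, with depths that differ, so these values only describe the ranking. With a pseudocount of 10 CPM, Dock6, Eef1akmt2, 4632415L05Rik and Znhit6 still ranked first for their member, while Hint2 ranked first for Pard3, Mydgf for Dlg1 and Sfpq for Llgl1. Prkcz, Scrib and Crb1 had fewer than 200 UMIs and were not ranked.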
